A study of Mus musculus with 43 samples.

Results

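The matrix metalloproteinase genes described here were Mmp8, Mmp9, Mmp12, Mmp13 and Mmp14, 5 genes of the 19752 measured. They were taken by their symbols in the array annotation, and each had 1 probe set. They had been picked with their levels and interferon responses in these arrays already known, so the levels and changes below are a description and carry no test. Matrix metalloproteinases are zinc-dependent proteases that are made as inactive precursors and, once activated outside the cell or at its surface, cut collagen, elastin, gelatin, cytokines and other proteins. Leukocytes use them to cross basement membranes and to remodel tissue, and neutrophils store several of them in granules. Their activity is held in check by the Timp proteins, and their transcription is known to respond to AP-1, NF-kappaB, Ets, Runx and Stat factors.

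RNA was measured on Mouse Gene 1.0 ST arrays, an Affymetrix platform with probes along each transcript, in 9 immune cell types sorted from male C57BL/6 mice aged 6 weeks. The treated mice had received 10000 U of interferon alpha under the skin 2 h earlier, an antiviral cytokine that signals through the type I interferon receptor, and gave 17 arrays. The baseline mice were labelled SPF, with no injection labelled, and gave 26 arrays. Each cell type had 2 interferon arrays, except macrophages with 1, and 3 baseline arrays, except neutrophils with 2. The cell types were 4 kinds of T cell (CD4+, CD8+, regulatory and gamma-delta), NKT cells, NK cells, dendritic cells and neutrophils, all titled as spleen cells, and peritoneal macrophages. Levels are log2 intensities, and a change is the interferon mean minus the baseline mean on that scale, with the standard error (SE) of a fit over all 18 groups. Levels of one gene can be compared between arrays, but levels of different genes cannot, because their probes differ.

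Some labels limit these groups. NKT baseline arrays 1 and 2 were labelled as sorted on NK1.1 alone, whereas NKT baseline array 3 and the interferon arrays were labelled NK1.1+ TCRb+. Blood is given as the source of baseline arrays 1 and 2 of CD8+ T cells, and spleen is named in the preparation of those of macrophages. The wording of the preparation also differed between the treatments in neutrophils and in CD4+ T, NKT and NK cells, so wording and treatment cannot be told apart there. Nothing in the labels says that arrays came from separate animals. Marker lists were highest where the labels place them for neutrophils, macrophages, dendritic cells, T cells and NK cells. The B cell list of 9 measured genes was highest in gamma-delta T cell arrays, where its median was 9.12 and 7.70 after interferon and 8.56, 8.06 and 9.56 at baseline.

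3 of the genes, Mmp13, Mmp12 and Mmp8, lie in this order in one cluster of metalloproteinase genes on chromosome 9, with Mmp13 and Mmp12 as direct neighbours. Mmp9 lies on chromosome 2 and Mmp14 on chromosome 14. Promoter windows from RefSeq (mouse build GRCm38.p6, plus strand, 250 bases before to 50 bases after the annotated start) were found for 4 of the 5 genes, all but Mmp9, in 5 windows. The windows of Mmp13 and Mmp12 are shown because these neighbours moved in opposite directions in dendritic cells. Capitals mark the motifs found among 6 that were searched on both strands.
Mmp13, chr9:7272264-7272563: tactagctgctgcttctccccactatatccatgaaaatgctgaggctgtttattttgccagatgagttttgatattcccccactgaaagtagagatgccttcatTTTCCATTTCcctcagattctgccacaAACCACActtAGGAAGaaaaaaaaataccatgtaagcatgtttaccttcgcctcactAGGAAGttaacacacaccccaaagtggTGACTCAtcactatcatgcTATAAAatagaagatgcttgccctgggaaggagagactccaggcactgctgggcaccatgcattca
Mmp12 first window, chr9:7344147-7344446: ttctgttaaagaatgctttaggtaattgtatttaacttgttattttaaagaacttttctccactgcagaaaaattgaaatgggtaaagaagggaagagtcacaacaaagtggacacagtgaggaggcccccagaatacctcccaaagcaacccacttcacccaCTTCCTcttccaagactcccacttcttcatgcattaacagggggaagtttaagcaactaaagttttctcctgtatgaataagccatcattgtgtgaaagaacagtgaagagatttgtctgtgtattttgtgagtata
Mmp12 second window, chr9:7347124-7347423: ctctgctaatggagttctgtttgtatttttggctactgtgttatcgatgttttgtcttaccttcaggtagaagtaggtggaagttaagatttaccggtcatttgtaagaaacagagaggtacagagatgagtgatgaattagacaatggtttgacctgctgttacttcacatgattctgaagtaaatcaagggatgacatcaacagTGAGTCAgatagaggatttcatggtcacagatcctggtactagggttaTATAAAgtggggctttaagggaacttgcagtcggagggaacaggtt

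The Mmp13 window held an AP-1 motif (TGANTCA) from base -35 to -29 before the start, a TATA box (TATAAA) from -16 to -11, a RUNX motif (AACCACA) from -119 to -113 and 2 PEA3 motifs for Ets factors (AGGAAG). It also held, on the minus strand from -146 to -137, the core of an interferon-stimulated response element (GAAA and GAAA with 2 bases of any kind between them). The first Mmp12 window held 1 PEA3 motif on the minus strand. The second Mmp12 window held an AP-1 motif from -44 to -38. It also held the letters of the TATA box from 4 to 9, which is after the annotated start. No GAS motif (TTCNNNGAA) was found in any of the 5 windows, and the interferon-stimulated core was found in the Mmp13 window alone. Among all 32851 mouse windows of this length, 7.81% held the AP-1 motif, 13.6% the TATA box, 5.27% the RUNX motif, 3.44% the interferon-stimulated core, 8.3% the GAS motif and 35.4% the PEA3 motif. A match of letters does not show binding.

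After interferon, 6 of the 45 changes of these genes, 5 genes in 9 cell types, reached 2-fold (1 on the log2 scale). Mmp13 was higher in NKT cells, dendritic cells and NK cells, Mmp9 was lower in NKT cells and dendritic cells, and Mmp12 was lower in dendritic cells. In NKT cells 1 of the 5 genes was at least 2-fold higher and 1 was at least 2-fold lower, and over all genes these shares were 3.21% and 0.390%. In dendritic cells 1 of the 5 was at least 2-fold higher and 2 were at least 2-fold lower, against 2.48% and 0.916% of all genes. In NK cells 1 of the 5 was at least 2-fold higher, against 1.48% of all genes. Since the genes were picked on these arrays, nothing is read from these shares. Mmp8 and Mmp14 stayed below 2-fold in all 9 cell types.

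**Figure D1:**
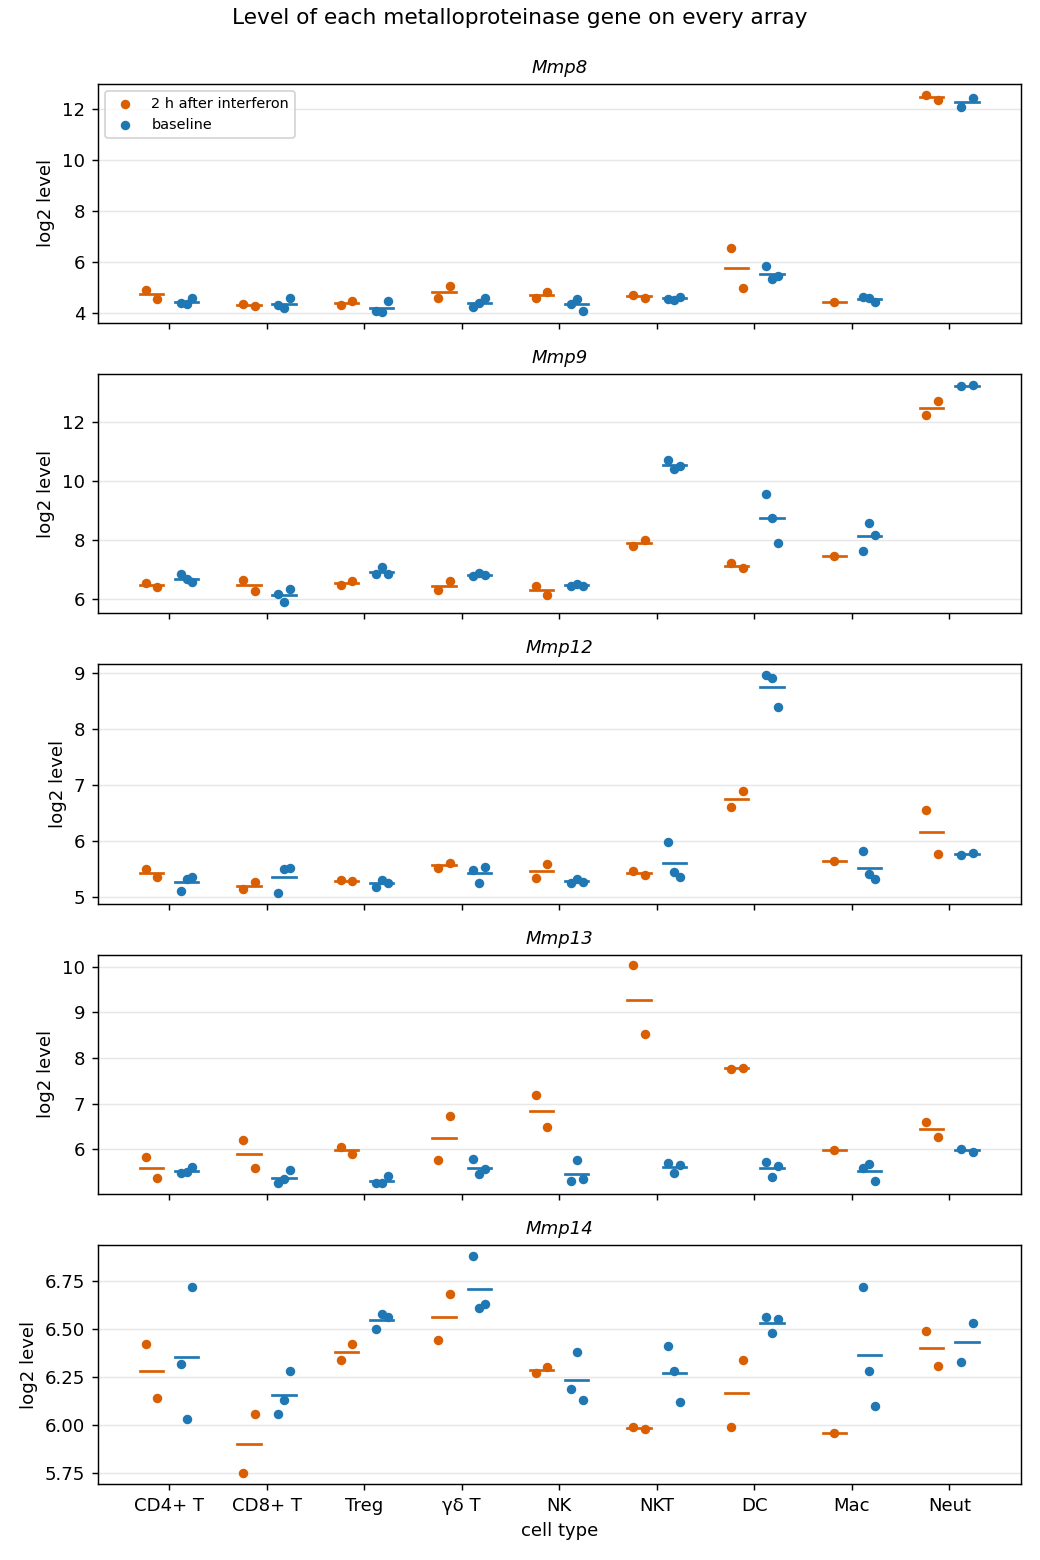
Log2 level of each gene on every array (points) by cell type, with group means as short lines; interferon arrays are orange and lie left of the blue baseline arrays. Mmp8 stands high in neutrophils alone, Mmp9 is lower in interferon NKT cells (7.78 and 8.0) than at baseline (10.38 to 10.70), and Mmp13 is high in interferon NKT cells (10.03 and 8.52).

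Mmp13 encodes a collagenase that cuts fibrillar collagen and is known above all from cartilage and bone. In NKT cells, innate-like T cells that respond to lipid antigens, Mmp13 reached 10.03 and 8.52 after interferon, against 5.70, 5.47 and 5.66 at baseline. Both interferon arrays lay above every baseline array, although they differed from each other by more than the baseline arrays did. The change was 3.67 (SE 0.276, 2 against 3 arrays), or 12.72-fold. It was 2.91 without interferon array 1 and 4.42 without interferon array 2.

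In dendritic cells, the antigen-presenting cells of the spleen, Mmp13 was at 7.76 and 7.79 after interferon, against 5.73, 5.40 and 5.64 at baseline. The interferon arrays differed by less than the baseline arrays, and the change was 2.18 (SE 0.276, 2 against 3 arrays), or 4.55-fold. In NK cells Mmp13 was at 7.19 and 6.48 after interferon, against 5.30, 5.76 and 5.34 at baseline. These arrays did not overlap either, and the change was 1.37 (SE 0.276), or 2.58-fold. With a pseudocount of 50 added before the logarithm, which damps low levels, it was 0.81, below 2-fold.

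In the other 6 cell types the Mmp13 change ranged from 0.058 in CD4+ T cells to 0.66 in regulatory T cells, so the change was above 0 in 9 of 9 types. The interferon arrays lay above every baseline array in 7 of 9 types, and overlapped with them in CD4+ and gamma-delta T cells. Of all genes, 12.4% lay so in NKT cells, 17.0% in dendritic cells, 13.4% in NK cells, 17.3% in regulatory T cells, 11.9% in CD8+ T cells, 16.1% in macrophages and 29.6% in neutrophils, and 11.3% and 10.7% in CD4+ and gamma-delta T cells. In gamma-delta T cells 1 interferon array stood at 6.74 and the other at 5.76, against 5.78, 5.45 and 5.56 at baseline. Baseline means of Mmp13 lay between 5.31 and 5.98, and only neutrophils, at the top, stood apart from the next type. After interferon the order was NKT cells at 9.28, dendritic cells at 7.77 and NK cells at 6.83, and from NK cells down each type overlapped with the next.

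Mmp9 encodes a gelatinase, stored in neutrophil granules and also made by macrophages and activated lymphocytes, that cuts basement membrane collagen and denatured collagen. Its change ran the other way from that of Mmp13 in NKT and dendritic cells. In NKT cells Mmp9 was at 7.78 and 8.0 after interferon, against 10.70, 10.38 and 10.49 at baseline. The groups were separated by more than 2 log2 units, and within each group the arrays lay close together. The change was -2.64 (SE 0.264, 2 against 3 arrays), so that the level was 6.21-fold lower, and it stayed between -2.41 and -2.75 under the alternatives tried.

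In dendritic cells Mmp9 was at 7.21 and 7.06 after interferon, against 9.56, 8.75 and 7.91 at baseline. The interferon arrays lay below all baseline arrays, but the baseline arrays were spread widely. The change was -1.60 (SE 0.264, 2 against 3 arrays), or 3.04-fold lower, and against baseline array 3 alone, whose preparation wording matches that of the interferon arrays, it was -0.77, below 2-fold. In neutrophils Mmp9 was at 12.21 and 12.69 after interferon, against 13.19 and 13.24 at baseline, a change of -0.76 (SE 0.289, 2 against 2 arrays). In peritoneal macrophages the single interferon array was at 7.47, against 7.64, 8.57 and 8.16 at baseline, a change of -0.65 (SE 0.333) that takes the spread of the other groups for the lone array.

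Across the 9 types, interferon arrays of Mmp9 lay below every baseline array in 7, and in CD8+ T cells and NK cells they overlapped. Of all genes, 28.6% lay below in this way in NKT cells, 26.1% in dendritic cells, 24.7% in neutrophils and 23.1% in macrophages. The share was 13% in gamma-delta T cells, 18.5% in regulatory T cells, 18.9% in CD8+ T cells, 11.6% in CD4+ T cells and 14.2% in NK cells. In CD8+ T cells, the one type with a change above 0, it was 0.33 (SE 0.264). The baseline order of Mmp9 was neutrophils at 13.21, NKT cells at 10.52, dendritic cells at 8.74 and macrophages at 8.12, of which dendritic cells and macrophages overlapped. The other 5 types had baseline means from 6.14 in CD8+ T cells to 6.93 in regulatory T cells. After interferon, neutrophils stayed first at 12.45, and NKT cells at 7.89 stood close to macrophages at 7.47 and dendritic cells at 7.13.

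**Figure D2:**
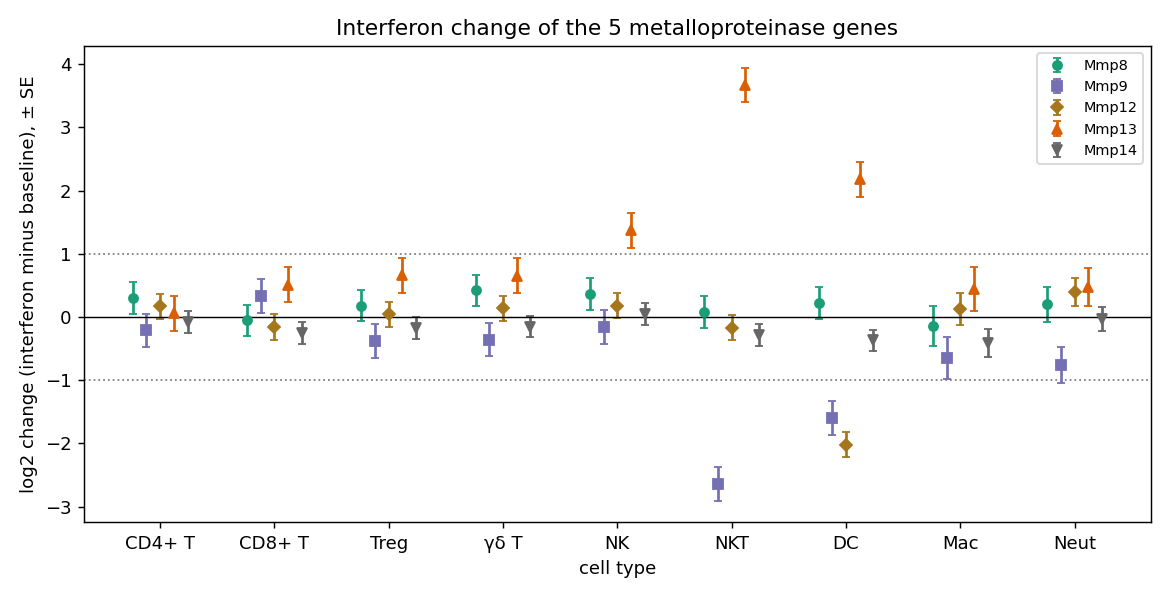
Log2 change of each gene by cell type, interferon minus baseline, with bars of 1 standard error from the fit over all groups; dotted lines mark 2-fold. Mmp13 lies above the upper line in NK, NKT and dendritic cells, Mmp9 below the lower line in NKT and dendritic cells, and Mmp12 below it in dendritic cells.

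Mmp12 encodes macrophage elastase, which degrades elastin. In dendritic cells it was at 6.60 and 6.89 after interferon, against 8.97, 8.91 and 8.40 at baseline. All interferon arrays lay below all baseline arrays by more than 1 log2 unit, and the change was -2.02 (SE 0.2, 2 against 3 arrays), or 4.06-fold lower. Dendritic cells had the highest mean of Mmp12 in both states, 6.74 after interferon and 8.76 at baseline. At baseline they stood well apart from the next type, neutrophils. After interferon the lower dendritic cell array, at 6.60, lay only just above the higher neutrophil array, at 6.56. Outside dendritic cells, arrays ran from 5.13 to 6.56 after interferon and from 5.07 to 5.98 at baseline, also in peritoneal macrophages, where the single interferon array was at 5.64. Changes in those 8 types ranged from -0.17 to 0.39. The upper end was in neutrophils, where the interferon arrays were at 6.56 and 5.76, against 5.75 and 5.78 at baseline, and without the first of these the change was -0.0093.

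Mmp8 encodes the neutrophil collagenase, a granule protein. In neutrophils it was at 12.55 and 12.33 after interferon, against 12.08 and 12.40 at baseline, so the groups overlapped, and the change was 0.20 (SE 0.274, 2 against 2 arrays). Dendritic cells came next, at 6.54 and 4.95 after interferon, against 5.82, 5.32 and 5.44 at baseline. Those 2 interferon arrays lay on either side of the baseline arrays, and the change was -0.58 without the first and 1.02 without the second. In the other 7 cell types, arrays of Mmp8 lay between 4.27 and 5.05 after interferon and between 4.02 and 4.63 at baseline. Its changes over the 9 types ranged from -0.14 to 0.42.

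Mmp14 encodes a membrane-anchored metalloproteinase that cuts collagen at the cell surface and activates the Mmp2 precursor. It varied little, with all arrays between 5.75 and 6.88 and group means spanning 0.80. Its change was below 0 in 8 of 9 types and ranged from -0.41 in macrophages to 0.051 in NK cells. Interferon arrays lay below every baseline array in 4 of 9 types, which were regulatory T cells, NKT cells, dendritic cells and macrophages. Of all genes, 18.5%, 28.6%, 26.1% and 23.1% lay below in this way in these types, and the Mmp14 changes there ranged from -0.17 to -0.41. In NKT cells Mmp14 was at 5.99 and 5.98 after interferon, against 6.41, 6.28 and 6.12 at baseline. Gamma-delta T cells had the highest mean in both states, 6.56 after interferon and 6.71 at baseline.

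The NKT results were set beside markers of other cells, since these arrays carried macrophage transcripts. In a bulk sample, fewer cells of a type and less RNA per cell cannot be told apart. The summed intensity of the 16 macrophage markers in NKT cells was 14581 and 7156 after interferon, against 9594, 3225 and 6794 at baseline, so the groups overlapped. Their median level was 9.46 and 8.52 after interferon, against 7.99, 7.03 and 8.46 at baseline, with no overlap. Of the 16 genes, Fcgr1 and Mertk were raised. Csf1r, the macrophage growth factor receptor, was at 11.01 and 9.64 after interferon, against 10.90, 8.67 and 9.76 at baseline. Interferon array 1 was the higher of the 2 for both the macrophage markers and Mmp13. Interferon array 2 had a Mmp13 level of 8.52 at a macrophage sum of 7156. On baseline array 1 the level was 5.70 at a sum of 9594. A baseline array does not show the Mmp13 level of macrophages among the NKT cells after interferon. Peritoneal macrophage arrays, from another tissue, had macrophage sums of 46625 after interferon and 42462 to 48071 at baseline. Their Mmp13 level was 5.98 on the single interferon array and 5.53 on average at baseline.

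For Mmp9, the NKT baseline levels were 10.70, 10.38 and 10.49, and the macrophage sum on those arrays was 9594, 3225 and 6794. The 12 neutrophil markers in NKT cells had medians of 6.23 and 5.97 after interferon, against 5.96, 5.78 and 5.56 at baseline, and neutrophil arrays had medians from 12.47 to 12.74. The T cell marker median in NKT cells was 9.87 and 10.12 after interferon, against 10.65, 10.76 and 10.72 at baseline. The 10 NK cell markers had medians there of 9.95 and 10.22 after interferon, against 9.41, 9.78 and 10.17 at baseline. Of these, Eomes and Klrk1 were raised. The 11 dendritic cell markers had medians of 9.07 and 7.32, against 7.99, 7.02 and 7.21 at baseline. The 9.07 was on interferon array 1, which also had the highest Mmp13 level. The part of other cells in the Mmp9 and Mmp13 changes was not tested.

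In dendritic cells the summed macrophage markers were lower after interferon, at 6807 and 7600, against 11265, 8886 and 9054 at baseline. The median of the 16 markers was 7.42 and 8.03 after interferon, against 7.94, 7.51 and 7.92 at baseline, so the medians overlapped. Adgre1, a surface protein of tissue macrophages, was at 9.29 and 9.72 after interferon, against 10.66, 10.42 and 10.35 at baseline. Csf1r and Cd68 were also lower on the interferon arrays, while C1qa and Mertk overlapped. Of the 16 macrophage markers in dendritic cells, 1 (Fcgr1) was raised. The 11 dendritic cell markers had medians of 11.73 and 11.59 after interferon, against 11.46, 11.50 and 11.64 at baseline. The neutrophil marker sum in dendritic cells was 2678 and 1124 after interferon, against 2492, 2612 and 1644 at baseline, and the array with 2678 was the one with the higher Mmp8 level. The part of these cells in the dendritic cell changes was not tested. In NK cells the macrophage sum was 2253 and 2131 after interferon, against 1531, 1660 and 1419 at baseline.

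**Figure D3:**
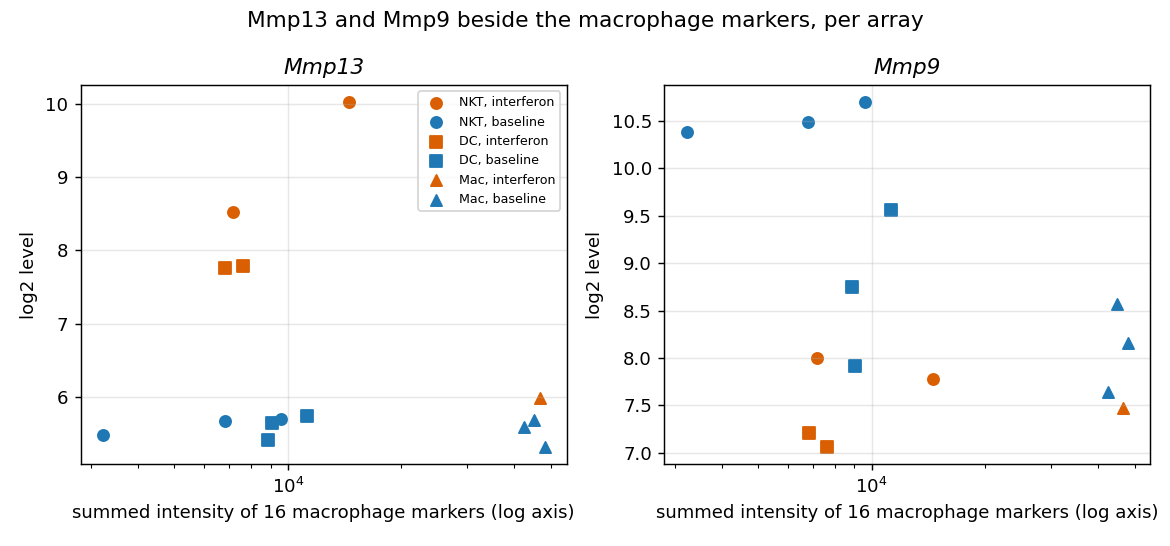
Log2 level of Mmp13 (left) and Mmp9 (right) on each NKT cell (circles), dendritic cell (squares) and peritoneal macrophage (triangles) array against the summed intensity of 16 macrophage markers on a log axis; interferon arrays are orange, baseline arrays blue. In NKT cells, Mmp13 is 10.03 on the interferon array with a macrophage sum of 14581 and 8.52 on that with a sum of 7156. It is 5.70 on the baseline array with a sum of 9594.

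The rest of the chromosome 9 cluster did not share the Mmp13 and Mmp12 changes. The cluster held 10 measured genes in the order Mmp13, Mmp12, Mmp1b, Mmp3, Mmp1a, Mmp10, Mmp8, Mmp27, Mmp20 and Mmp7. The 7 that were not picked changed by -0.31 to 0.65 over the 9 types. Their levels lay between 3.49 and 7.21 on all arrays, where array medians were 6.71 to 6.966 on the log2 scale. From such low levels, a fall as large as that of Mmp12 could hardly be measured. In dendritic cells Mmp13 changed by 2.18 and its neighbour Mmp12 by -2.02, while Mmp1b, on the other side of Mmp12, changed by 0.0036. Mmp1b changed by -0.051 to 0.37 over the 9 types. Mmp10 and Mmp27, the neighbours of Mmp8, changed by -0.14 to 0.37 and by -0.18 to 0.65.

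**Figure D4:**
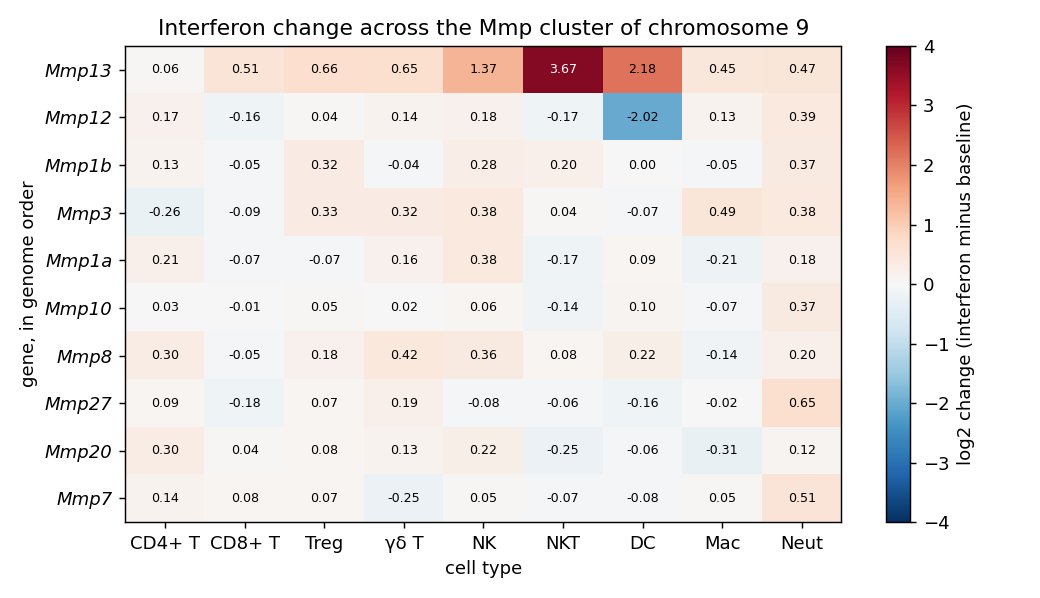
Log2 change, interferon minus baseline, of the 10 metalloproteinase genes of the chromosome 9 cluster in genome order (rows) and by cell type (columns), with the value in each cell. Mmp13 is red in NK, NKT and dendritic cells, Mmp12 is blue in dendritic cells, and the 7 genes that were not picked stay between -0.31 and 0.65.

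Genes of the same pathway were taken from 8 lists, and 123 of their 131 genes were measured. Each was tested in the fit over all genes (limma, Benjamini-Hochberg adjusted p below 0.05 within a cell type and a change of at least 1). Over the 9 types there were 24 raised and 4 lowered results among these 123 genes, against 2924 raised and 1172 lowered among all 19752 genes. Of all genes, 2.89% were raised and 0.380% lowered in NKT cells, 2.34% and 0.810% in dendritic cells and 1.25% and 0.537% in NK cells. In neutrophils 2.43% were raised and 2.85% lowered, and in macrophages 1.35% and 0.263%. In CD8+ T cells 1.00% were raised and 0.319% lowered, in gamma-delta T cells 1.53% and 0.683%, in CD4+ T cells 0.901% and 0.0658% and in regulatory T cells 1.11% and 0.0253%. The median change over the list genes ranged from -0.11 to 0.14 by cell type, and that over all genes from -0.10 to 0.075.

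Of 17 other matrix metalloproteinases, Mmp25 in dendritic cells was the 1 call. Mmp25 encodes a membrane-anchored metalloproteinase of leukocytes. It was at 8.76 and 8.64 after interferon, against 7.11, 6.77 and 6.91 at baseline, with no overlap, and rose by 1.77 (SE 0.296, limma, adjusted p = 6.49e-05). In neutrophils, where it was highest, Mmp25 was at 9.58 and 10.69 after interferon and 10.62 and 11.07 at baseline, a change of -0.71 that was not called (limma, adjusted p = 0.171).

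Among 7 inhibitors, the 1 call was Timp2, which encodes an inhibitor that also takes part in Mmp2 activation and was lowered in CD8+ T cells. It was at 8.41 and 7.77 there after interferon, against 9.34, 9.10 and 8.92 at baseline, a change of -1.02 (SE 0.208, limma, adjusted p = 0.00232). Timp2 changes were below 0 in all 9 types, from -0.20 in neutrophils to -1.02. In CD8+ T cells the change was -0.70 without interferon array 2. It was -0.82 against baseline array 3 alone, the only baseline array there without blood as its source. With quantile normalisation it was -0.90, and without baseline array 1 it was -0.91. Each of these fell short of the call. Among 16 activators and binding partners, Furin, a protease that activates Mmp14 and other precursors, was the 1 call. It was lowered in neutrophils to 9.30 and 10.30 after interferon, against 11.06 and 11.12 at baseline, a change of -1.29 (SE 0.302, limma, adjusted p = 0.00312). Without neutrophil interferon array 1 it was -0.79 (limma, adjusted p = 0.252).

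Among 20 ADAM and ADAMTS proteases, Adamts6, a secreted metalloproteinase, made up all 5 raised results. It rose in dendritic cells by 2.22, in NKT cells by 2.17, in macrophages by 1.93, in gamma-delta T cells by 1.62 and in CD8+ T cells by 1.44 (limma, adjusted p from 1.81e-06 to 0.00316). The call in CD8+ T cells was lost without interferon array 2 (change 0.98, limma, adjusted p = 0.222), and that in gamma-delta T cells when the type was fitted alone (limma, adjusted p = 0.104). In NKT cells Adamts6 was at 8.78 and 8.83 after interferon, against 6.28, 6.80 and 6.82 at baseline. In the other 4 types its interferon arrays also lay above every baseline array, with changes of 0.56 to 0.86 that were not called, as 11.3% to 29.6% of all genes did there.

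Among 13 cathepsins, Ctss, a lysosomal elastase that processes the class II invariant chain, made up all 4 raised results. In neutrophils it was at 11.16 and 11.30 after interferon, against 8.28 and 8.51 at baseline, and rose by 2.84 (SE 0.203, limma, adjusted p = 2.11e-12). It rose by 1.91 in NK cells, 1.59 in NKT cells and 1.28 in gamma-delta T cells. In CD4+, CD8+ and regulatory T cells the Ctss changes were 0.93, 0.90 and 0.65, each below 2-fold and not called. Its interferon arrays lay above every baseline array there too, as 11.3%, 11.9% and 17.3% of all genes did. In dendritic cells and macrophages, where baseline Ctss was already at 11.25 and 11.55 on average, its changes were 0.33 and 0.052. In neutrophils the 9 B cell markers had summed intensities of 843 and 768 after interferon, against 5154 and 2956 at baseline, and 6 of the 9 were lowered. The 11 dendritic cell markers had sums there of 1459 and 1898 after interferon, against 4891 and 3882 at baseline. Of these, Clec9a, H2-Ab1 and Itgax were lowered. The part of B cells and dendritic cells in the neutrophil changes was not tested.

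Among 16 matrix substrates, Vcan, which encodes versican, rose in macrophages by 1.86 (SE 0.338, limma, adjusted p = 0.000478), with the single interferon array at 9.32, against 7.12, 6.80 and 8.46 at baseline. Against baseline array 3 alone this was 0.86 (limma, adjusted p = 0.147). Fn1, which encodes fibronectin, rose in dendritic cells by 1.04 (SE 0.269, limma, adjusted p = 0.0113), with 8.13 and 8.12 after interferon against 7.01, 7.14 and 7.12 at baseline. That call was lost without either interferon array (limma, adjusted p = 0.097 and 0.122).

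Among 19 transcription regulators of metalloproteinase genes, 8 raised and 2 lowered results were found. Fos, an AP-1 subunit, rose in dendritic cells by 1.73 (SE 0.345, limma, adjusted p = 0.000725), with 10.22 and 10.52 after interferon against 8.26, 8.34 and 9.31 at baseline. Fosb, another AP-1 subunit, rose there by 1.39 (SE 0.299, limma, adjusted p = 0.00178), with 10.73 and 10.82 after interferon against 8.99, 9.08 and 10.08 at baseline. Baseline array 3 was the highest baseline array for both, and against it alone the Fosb change was 0.69 (limma, adjusted p = 0.238). In NKT cells, where Mmp13 was highest after interferon, the Fos change was 0.66 and was not called (limma, adjusted p = 0.268). The other 6 raised results were all of Ets2, an Ets factor named after its values were seen, with changes of 1.02 to 1.22 in 6 types but 0.43 in dendritic cells (limma, adjusted p = 0.592). Cebpb and Sp1 were each lowered in neutrophils by 1.35 (limma, adjusted p = 0.00144 and 0.00105), and the Cebpb change was -0.82 without neutrophil interferon array 1 (limma, adjusted p = 0.182).

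Among 19 neutrophil granule genes, the 4 calls were rises. Cybb, the membrane subunit of the phagocyte oxidase, rose in gamma-delta T cells by 2.41, in regulatory T cells by 2.06 and in NKT cells by 2.06 (limma, adjusted p = 0.00122, 0.0135 and 0.00479). In NKT cells it was at 11.52 and 9.70 after interferon, against 9.26, 7.88 and 8.52 at baseline. The summed macrophage markers on these NKT arrays were 14581 and 7156, against 9594, 3225 and 6794. Cybb was highest in peritoneal macrophages, at 13.18 on the single interferon array and 13.09 on average at baseline. The part of macrophages in the NKT rise of Cybb was not tested. Ngp, a granule protein of neutrophil precursors, rose in NKT cells by 1.64 (SE 0.404, limma, adjusted p = 0.00764), with 8.07 and 6.88 after interferon against 5.94, 6.12 and 5.45 at baseline. NKT interferon array 1, which had the highest Mmp13 level, was the higher of the 2 for Cybb and Ngp as well. Without it the changes in NKT cells were 1.15 for Cybb and 1.05 for Ngp, and the calls were lost. Against baseline array 3 alone, labelled NK1.1+ TCRb+ like the interferon arrays, they were 2.09 and 2.03, again not called. With NKT cells fitted alone, the calls were lost as well (limma, adjusted p = 0.132 and 0.0746). Without gamma-delta T cell interferon array 1 the Cybb change there was 1.46 (limma, adjusted p = 0.132). That array had a Cybb level of 11.26 and a summed B cell marker intensity of 11364, against 9.35 and 3076 on interferon array 2, and the baseline sums were 7292, 3222 and 12755. The part of B cells in this rise was not tested. In regulatory T cells the Cybb call was lost against baseline array 3 alone (change 1.81, limma, adjusted p = 0.456). It was also lost without baseline array 1 or 2 (limma, adjusted p = 0.0546 and 0.0701) and without interferon array 1 or 2 (limma, adjusted p = 0.0878 and 0.376).

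**Figure D5:**
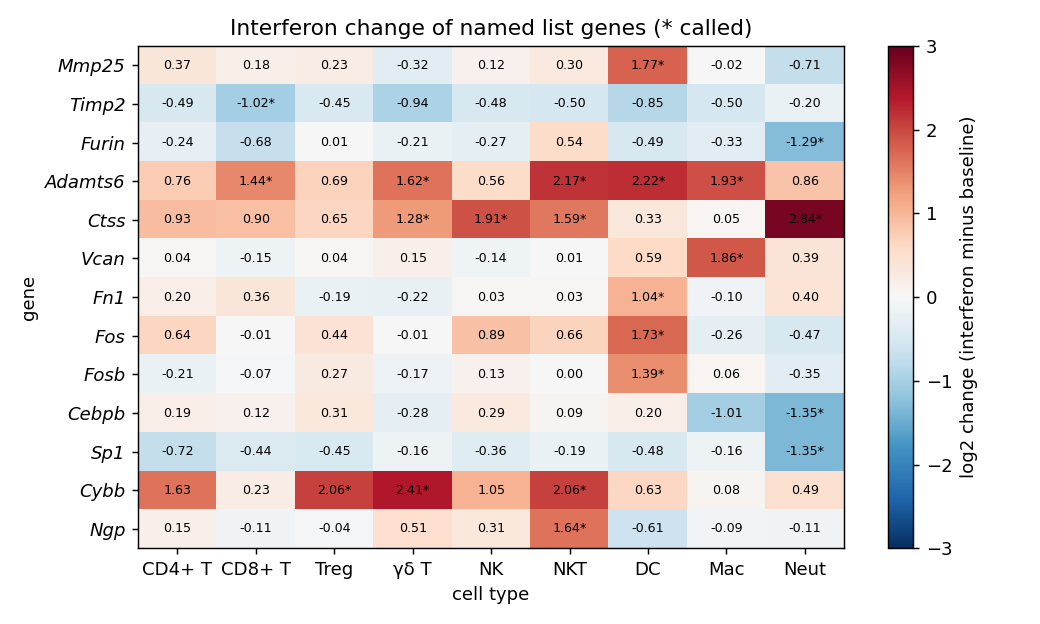
Log2 change, interferon minus baseline, of the list genes named by rule (rows) in each cell type (columns), with an asterisk where limma's adjusted p was below 0.05 and the change at least 1. Adamts6 is raised in 5 types and Ctss in 4, and Mmp25, Fos and Fosb are raised in dendritic cells.

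The genes whose pattern over the 18 group means was most like that of each metalloproteinase were ranked by Pearson's r among 4282 genes whose group means spanned at least 2 log2 units. For Mmp8 these were Il1f9, Retnlg, Arg2, Abca13 and Ltf (r from 0.994 to 0.999), all high in neutrophils, with group means of Il1f9 from 4.63 to 12.32. For Mmp9 they were Siglece, Mgll, Map2k3, Lst1 and Adipor1 (r from 0.918 to 0.949). In NKT cells, where Mmp9 changed by -2.64, these 5 changed by -0.55 to 0.46. For Mmp12 they were Tmem150b, Arhgap42, Adgra2, Scn3a and Septin3 (r from 0.953 to 0.973), and in dendritic cells these changed by -1.48 to -0.64. For Mmp13 the likeness was weaker, with Ms4a4a at 0.781 and Marchf5, St6galnac4, C6 and Tor1aip1 at 0.705 to 0.726. Ms4a4a changed by 2.52 in NKT cells, 1.08 in NK cells and 0.99 in dendritic cells, where Mmp13 changed by 3.67, 1.37 and 2.18. In macrophages, with 1 interferon array, Ms4a4a changed by 2.42 but Mmp13 by only 0.45. For Mmp14, whose own means spanned 0.80, it was weakest, with Ccr6 at 0.696 and Blk, Prdm16, Tnfrsf13c and Fcer2a at 0.560 to 0.621. Blk is on the B cell marker list, which like Mmp14 was highest in gamma-delta T cell arrays. The interferon and baseline means compared here are among the 18 used for the ranking, so like changes are partly set by it. The points share arrays and cell types, and these values are a description.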

How the data were processed

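Per the labels' protocols, RNA was extracted with TriZol and amplified with the Ambion WT Expression Kit. The deposited values are linear intensities per probe set, made by RMA in Affymetrix Power Tools per the submitters' processing notes. RMA summarises probes and normalises across arrays, and no version is named. The values were log2-transformed here. Of 24922 probe sets, 21425 carried 1 symbol, 1399 several and 2098 none, and the brightest probe set per symbol left 19752 genes. Array medians lay between 104.7 and 125.1. One limma 3.58.1 model (R 4.3.3) held all 18 groups (25 residual degrees of freedom). A gene was called at a Benjamini-Hochberg adjusted p below 0.05, two-sided, and a change of at least 1. P-values measure only the spread between arrays.

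The metalloproteinase genes and all gene lists were chosen with earlier results of these data known. By rule, the text names at most 4 genes per list, the largest changes among calls whose arrays did not overlap. It also names list genes next to a metalloproteinase gene described, and the 5 genes most like each metalloproteinase. Ets2 was named outside this rule, after its values were seen. The fit was tested on simulated data. Alternatives were a preparation term, baseline replicate 3 alone, a replicate block, each cell type alone, quantile normalisation, a pseudocount of 50, dim genes left out, another moderation, the mean of probe sets and each array left out. Same-numbered arrays had residual correlations between -0.301 and 0.347, so numbers were not taken as pairs. List genes without a unique symbol on the array are not analysed here.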

Additional observations from a re-analysis of the deposited data

Results flagged for a closer look

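Each of the 22 named list calls was set against the mean change of the other 8 types. This was a contrast in the same limma fit, adjusted over all genes. In 8 of the 22 the change in the called type differed from that mean. The calls had been chosen for a large change in that type, which favours such a difference. In dendritic cells the difference was 1.75 for Mmp25 (limma, adjusted p = 0.000676), 1.5 for Fos (limma, adjusted p = 0.0191) and 1.43 for Fosb (limma, adjusted p = 0.00777). In neutrophils it was 1.88 for Ctss (limma, adjusted p = 3.03e-07), -1.34 for Cebpb (limma, adjusted p = 0.00723) and -1.08 for Furin (limma, adjusted p = 0.0449). It was 0.84 for Ctss in NK cells (limma, adjusted p = 0.0484) and 1.75 for Vcan in macrophages (limma, adjusted p = 0.00792), where the single interferon array was taken to vary like the other groups.

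The interferon arrays of Mmp12 lay below every baseline array in dendritic cells (change -2.02, SE 0.2), as 26.1% of all genes did there. They lay above every baseline array in CD4+ T cells (change 0.17, SE 0.2) and NK cells (change 0.18, SE 0.2), as 11.3% and 13.4% of all genes did, and these changes are smaller than their SE. The difference between these types was not tested, because Mmp12 was picked on these arrays.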

How the results depend on the processing

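None of the 6 metalloproteinase changes of at least 2-fold and none of the 22 named list calls changed direction under the alternatives run. Smaller changes could cross 0, as Mmp8 in dendritic cells (-0.58 without interferon replicate 1) and Mmp12 in neutrophils (-0.0093 without interferon replicate 1) did. Of 60 alternative values of the 6 changes of at least 2-fold, 48 moved by less than the spread within groups and 12 moved by more. With a pseudocount of 50, Mmp13 changed by 2.78 in NKT cells, 1.45 in dendritic cells and 0.81 in NK cells, and Mmp12 in dendritic cells by -1.63. The pseudocount damps low levels by construction. Against baseline replicate 3 alone, the dendritic cell changes were -0.77 for Mmp9 and -1.66 for Mmp12, and the list calls were 14 raised and 7 lowered, against 24 and 4. With a preparation term 7 were lowered. The cause was not tested. With each array left out, Mmp9 in dendritic cells ranged from -1.19 without baseline replicate 1 to -2.02 without baseline replicate 3. Mmp13 ranged from 1.01 to 1.72 in NK cells and from 2.91 to 4.42 in NKT cells, by which interferon array was left out. The raised list calls ranged from 21 to 26. The lowered ones ranged from 2 without neutrophil interferon replicate 1 to 12 without neutrophil interferon replicate 2, with 8 without dendritic cell interferon replicate 1. With a replicate block, which the labels do not show to be a pairing, the changes were -2.69 and -1.66 for Mmp9 in NKT and dendritic cells, -2.05 for Mmp12 in dendritic cells, and 3.67, 2.19 and 1.37 for Mmp13 in NKT, dendritic and NK cells. The block gave 25 raised and 6 lowered list calls, against 24 and 4. Of 274 alternative values of the named list calls, 31 fell short of the call. Baseline replicate 3 alone gave no value for neutrophils. The number of arrays limits the precision, and no detection calls were used, so whether the lowest levels exceed background is not known.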
